A study of Mus musculus with 2 samples.

Results

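Arg1-high C1q macrophages were 214 of the 4403 filtered cells in single-cell RNA sequencing of subcutaneous ovarian tumors, with 81 from WT and 133 from TSK. A cell was a member if it held at least 3 unique molecular identifiers (UMIs, each counting 1 captured RNA molecule) over C1qa, C1qb and C1qc, at least 1 over Csf1r and Ptprc, fewer than 2 over the T cell genes Cd3d, Cd3e, Cd3g and Trac, fewer than 2 over the resident macrophage genes Folr2, Lyve1 and Cd163, and at least 3 of Arg1. C1q macrophages that met all of this except the Arg1 limit are called Arg1-low (63 WT and 55 TSK cells), and C1q macrophages with at least 2 UMIs over the resident genes are called resident-like (36 WT and 126 TSK cells). Members were thus chosen by their measured C1q, Csf1r, Ptprc, T cell, resident and Arg1 UMIs, and those values are given below only as a description.

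The tumors had grown in female C57BL/6 mice of 6 to 8 weeks from injected SO cells, a syngeneic ovarian cancer line that lacks p53 and carries Hras and myc. WT mice carried the normal Fbn1 gene. TSK (tight skin) mice are heterozygous for a duplication within Fbn1, the gene of the microfibril protein fibrillin-1, carry it in all cells from birth, and are used as a model of systemic sclerosis. The tumors of several mice were pooled into 1 library per genotype, so animals could not be compared, no test between genotypes was possible, and every interval below covers counting error only.

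Macrophages with high Arg1 are a familiar population of solid tumors. Arginase 1 splits arginine into ornithine and urea, which draws on the same amino acid that inducible nitric oxide synthase (Nos2) and dividing T cells use, and it is raised in macrophages by interleukin-4 and by tumor-derived signals including low oxygen. C1q, the recognition subunit of the classical complement pathway, is made by mature tissue and tumor macrophages and is largely absent from monocytes.

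The members held the markers of their name. C1qa was detected in 76 of 81 WT and 131 of 133 TSK members, and Cd14, a co-receptor for bacterial lipopolysaccharide, in 78 and 115. Of markers that the rule did not use, Cd68, a lysosomal glycoprotein, was found in 70 and 110, and Fcer1g, the signaling chain of Fc receptors, in 81 and 131. Summed counts reached 577 (WT) and 696 (TSK) counts per 1000000 UMIs of the class (CPM) for Tyrobp, a signaling adaptor of myeloid cells, against 31.9 CPM or less in T cells. The 9 T and NK cell markers outside the rule summed to 8 UMIs in WT and 6 in TSK members, and the erythroid markers to 0 and 1. Some other cell types' markers were higher. The 6 endothelial and mural markers summed to 248 UMIs in WT and 135 in TSK members. At least 3 of these UMIs were held by 24 WT and 12 TSK members, and the top 3 cells held only 38.3% and 32.6%. The 10 neutrophil markers summed to 107 and 79 UMIs, and the 8 dendritic cell markers to 29 and 50.

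Depth differed between the libraries and between the classes. The median member held 15513 UMIs in WT and 8468 in TSK, and the median Arg1-low cell 9189 and 5366. All members together held 1463811 UMIs in WT and 1376665 in TSK, so 3 counts correspond to about 2 CPM (2.05 and 2.18). A limit of 10000 UMIs per cell, which the study used, would leave out 76.5% of the WT and 39.1% of the TSK members. Barcodes found in both libraries (263) were left out, which cost 2 WT members and no TSK member. No doublet caller was run.

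Fibroblast and cancer RNA was concentrated in a few members. The 7 fibroblast markers summed to 3446 UMIs in WT and 1218 in TSK members, of which 3 cells held 97.6% and 93.1%. The 7 cancer cell markers summed to 43 UMIs in WT and 374 in TSK, and T cells of the same TSK library held more of them (573 CPM against 272 CPM). Ratios carried by such cells are given below with the share that 1 cell held. Alternatives left out cells with 10 UMIs of these markers, or with 3 UMIs of other cell types' markers. For many results that changed, though not all, the value without such cells is given.

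Members made up 5.62% of filtered cells in WT (95% exact binomial interval 4.49 to 6.93) and 4.49% in TSK (3.77 to 5.30), which as TSK over WT came to −0.32 (−0.73 to 0.09) on the log2 scale. Among all C1q macrophages they were 45.0% (37.6 to 52.6) in WT and 42.4% (36.8 to 48.0) in TSK. Among non-resident C1q macrophages they were 56.3% (47.7 to 64.5) in WT and 70.7% (63.7 to 77.1) in TSK, beside Arg1-low shares of 43.8% and 29.3%. The intervals of all 3 ratios included 0, but they treat the cell counts as unbounded and are too wide where a share is large. For the Arg1-low share of non-resident cells, the complement, the log2 ratio was −0.58 (−1.13 to −0.036), which excluded 0. These intervals therefore do not settle whether 56.3% and 70.7% were apart beyond counting error. With the rule applied to cells thinned to 2000 UMIs, the shares were closer, at 46.7% (37.5 to 56.0) in WT and 55.8% (47.8 to 63.5) in TSK. With the upper limit of 10000 UMIs, 19 WT and 81 TSK members remained and the log2 ratio of the share of filtered cells was 1.21 in place of −0.32, so the direction of this share turned with the treatment of deep cells.

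Few cells lay at the Arg1 limit. In WT, 4 cells held exactly 2 Arg1 UMIs and 1 held 3, and in TSK 5 cells held 2 and 11 held 3. Most members were far above it, with 10 or more Arg1 UMIs in 74 of 81 WT and 105 of 133 TSK members. The 11 TSK cells at 3 UMIs were shallow, with a median of 2080 UMIs per cell.

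**Figure D1:**
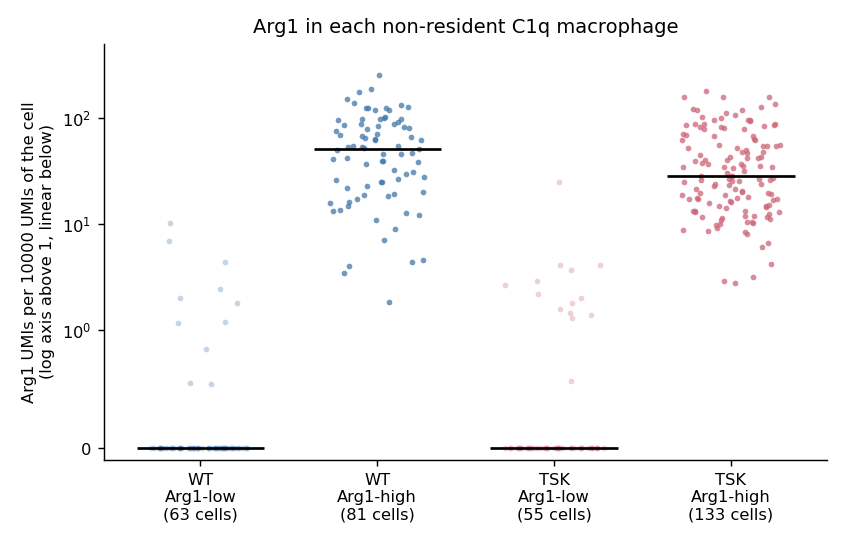
Arg1 UMIs per 10000 UMIs of each cell (log axis above 1, linear below) in Arg1-low and Arg1-high C1q macrophages of the WT and TSK libraries. Each point is a cell and each black line the median, which was 50.8 in WT and 28.3 in TSK members and 0 in both Arg1-low groups.

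Arg1 varied widely among members. The WT members ranged from 3 to 449 Arg1 UMIs with a median of 67, and the TSK members from 3 to 237 with a median of 25. Scaled to the depth of each cell, the medians were 50.8 and 28.3 per 10000 UMIs, with quartiles of 22.1 to 87.5 in WT and 15.1 to 62.8 in TSK. The members' distributions overlapped over most of their range, as the plot of Arg1 per cell shows. Summed over members, Arg1 stood at 5602 CPM in WT and 4048 CPM in TSK.

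Since the limit on Arg1 shapes those levels, Arg1 was also summed over all non-resident C1q macrophages, where it was 3916 CPM (95% exact Poisson interval 3832 to 4002) in WT and 3239 CPM (3155 to 3325) in TSK. The log2 ratio of −0.27 (−0.32 to −0.22) was beyond counting error but changed its direction with the choice of cells. It was 0.15 with the upper limit on UMIs, 0.13 without cells holding 3 UMIs of other cell types' markers, and 0.20 with the rule applied at equal depth. Members held 54.3% of all Arg1 UMIs of the filtered WT cells and 48.3% of those in TSK, resident-like macrophages 13.8% and 27.9%, and cells outside the C1q classes 31.8% and 23.6%. T cells stood at 20.9 and 47.6 CPM, and Arg1-low cells, whose low level the rule fixed, at 23.7 and 54.3 CPM.

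The genes that members shared were found by comparing them with the Arg1-low cells of the same library, in each library apart. This is a description, since the cut was made on these cells. Of 5799 genes with a mean of at least 20 CPM over the 4 sums, 153 (2.64%) were at least 2-fold higher in Arg1-high cells in both libraries and 95 (1.64%) were at least 2-fold lower in both. The median gene was at a log2 ratio of −0.01 in WT and −0.05 in TSK.

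Genes of glycolysis and of the response to low oxygen made up the clearest group. Of 26 listed genes tested, 18 were at least 2-fold higher in members in both libraries and none was 2-fold lower, against 2.64% of all tested genes that were higher. The median listed gene was at a log2 ratio of 1.61 in WT and 1.22 in TSK. The list summed to 9734 CPM in WT and 11779 CPM in TSK members against 3560 and 5160 CPM in Arg1-low cells. The count ran from 12 to 20 over the alternative settings tried. T cells of the same libraries held 3676 and 6939 CPM of the list. Resident-like cells lay between members and Arg1-low cells, at 6306 CPM in WT and 8576 CPM in TSK. Of 51 genes named in this comparison for a 2-fold ratio in both libraries, 25 kept it under every alternative that gave a value. The upper limit on UMIs kept 27 of the 42 it gave a value for, and the rule at 2000 UMIs 39 of 50.

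The targets of hypoxia-inducible factors led this group. Hilpda, which inhibits lipolysis at lipid droplets, was at 152 CPM in WT and 299 CPM in TSK members and at 4.73 (3 UMIs) and 45.7 CPM in Arg1-low cells, log2 ratios of 5.0 (3.44 to 7.29) and 2.71 (1.99 to 3.53). Egln3, an oxygen-sensing prolyl hydroxylase, was at 45.8 and 66.1 CPM against 3.15 and 11.4 CPM, with log2 ratios of 3.86 (1.95 to 6.93) and 2.53 (1.13 to 4.44) that rest on 2 and 4 UMIs in Arg1-low cells. Bnip3, a mitophagy receptor, was at 176 and 225 CPM against 33.1 and 42.9 CPM. Vegfa, the principal angiogenic growth factor, was at 416 and 368 CPM against 83.6 and 88.6 CPM, log2 ratios of 2.32 (1.91 to 2.75) and 2.05 (1.53 to 2.63). The intervals of all 4 genes excluded 0 in both libraries. With the rule at 2000 UMIs the smaller ratio of Vegfa was 0.83, under 2-fold.

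Transcripts of a glucose transporter and of most listed glycolytic enzymes were higher as well. The transporter gene Slc2a1 was at 202 and 296 CPM in WT and TSK members against 85.2 and 103 CPM in Arg1-low cells, but it was not 2-fold higher in both libraries with the upper limit on UMIs. Gapdh was at 1138 and 1536 CPM against 379 and 558 CPM, and its log2 ratios were 1.59 (1.39 to 1.79) and 1.46 (1.25 to 1.68). Pgam1, Tpi1 and Aldoa, all enzymes of the lower or middle part of glycolysis, had log2 ratios of 1.72, 1.81 and 1.61 in WT and 1.5, 1.26 and 1.22 in TSK. Ero1l, an oxidase of the endoplasmic reticulum, and the cytokine Mif were also at least 2-fold higher in both. Hif1a, whose protein is controlled mainly by degradation, differed less (0.60 and 0.39), and the hexokinase Hk1 was at −0.38 (−0.90 to 0.16) and −0.22 (−0.86 to 0.45).

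**Figure D2:**
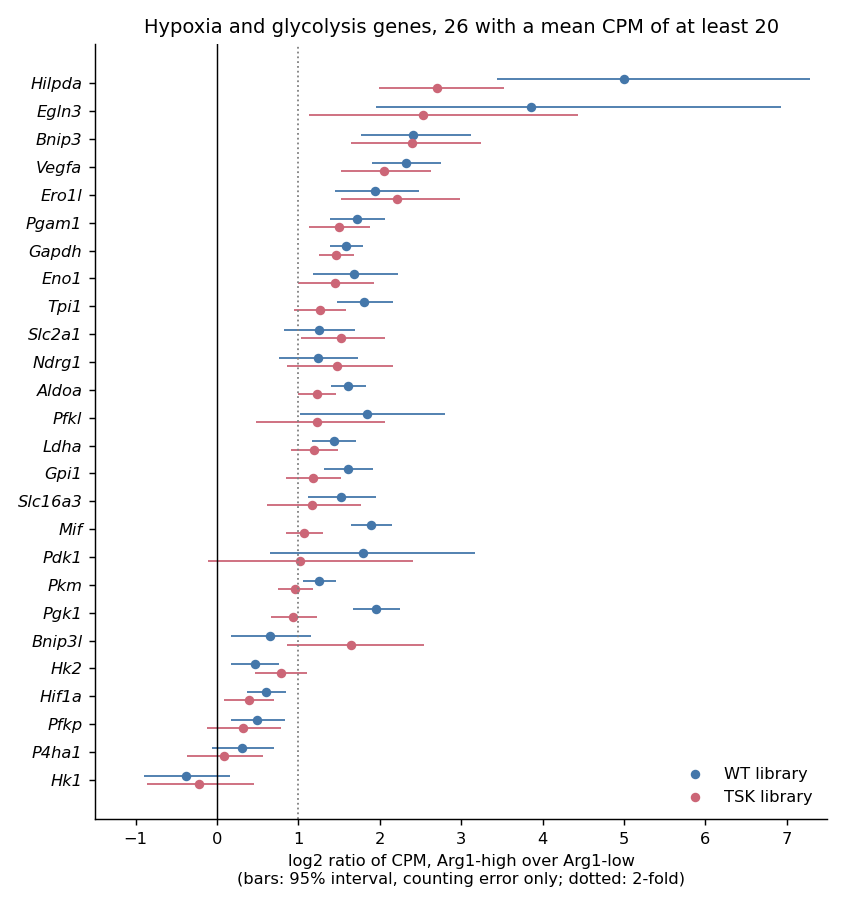
Log2 ratio of CPM, Arg1-high over Arg1-low C1q macrophages, for the 26 hypoxia and glycolysis genes tested, in the WT and TSK libraries, with 95% counting intervals. In both libraries 18 genes lay beyond the dotted 2-fold line, led by Hilpda at 5.0 in WT and 2.71 in TSK.

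Promoter sequences of this group are shown because hypoxia-inducible factors bind DNA at sites with the core ACGTG. On either strand, this core was found in 20 of 36 windows of listed genes (55.6%), each from 250 bases before to 50 bases after a RefSeq start, against 6447 of 32851 windows of all genes (19.6%). Of 28 listed genes 26 had a window. Among the genes at least 2-fold higher in members the core was in 13 of 25 windows (52.0%), no more than in the whole list. The list was chosen as genes of glycolysis and of the response to low oxygen. Its contrast with all windows therefore describes the list and not the members. A match of 5 letters is a description of sequence and not of binding. The 250 bases before the start are printed for 4 of the genes described above, from RefSeq on build GRCm38.p6, 5′ to 3′ on the strand of the gene, with the core or its reverse complement CACGT in capitals. In Bnip3 a match on each strand overlaps to CACGTG.
Hilpda, chr6:29272376-29272625, + strand: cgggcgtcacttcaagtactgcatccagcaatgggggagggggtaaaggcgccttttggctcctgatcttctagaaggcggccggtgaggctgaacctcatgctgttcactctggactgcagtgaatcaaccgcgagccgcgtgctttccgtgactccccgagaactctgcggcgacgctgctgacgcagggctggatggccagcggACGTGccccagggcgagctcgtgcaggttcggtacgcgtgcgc
Egln3, chr12:54203875-54204124, − strand: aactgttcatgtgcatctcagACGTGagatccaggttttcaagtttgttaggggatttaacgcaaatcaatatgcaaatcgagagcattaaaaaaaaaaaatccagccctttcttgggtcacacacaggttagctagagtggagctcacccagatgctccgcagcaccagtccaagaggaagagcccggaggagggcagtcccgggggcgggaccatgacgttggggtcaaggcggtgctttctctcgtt
Bnip3, chr7:138909507-138909756, − strand: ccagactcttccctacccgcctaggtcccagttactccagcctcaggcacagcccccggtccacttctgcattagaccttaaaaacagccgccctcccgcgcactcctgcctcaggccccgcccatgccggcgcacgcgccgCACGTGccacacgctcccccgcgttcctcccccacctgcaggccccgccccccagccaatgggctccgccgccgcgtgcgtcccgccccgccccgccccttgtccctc
Slc2a1, chr4:119108495-119108744, + strand: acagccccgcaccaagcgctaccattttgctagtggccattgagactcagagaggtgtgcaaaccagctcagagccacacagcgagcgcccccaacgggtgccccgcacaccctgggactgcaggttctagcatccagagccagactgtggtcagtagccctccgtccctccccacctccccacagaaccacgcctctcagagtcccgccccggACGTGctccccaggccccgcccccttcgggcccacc

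The match lay 43 bases before the start in Hilpda, 36 in Slc2a1, 229 in Egln3 and 108 in Bnip3, counted from its first base. All 4 genes were among those at least 2-fold higher in members in both libraries.

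Slc7a2, a cationic amino acid transporter that brings arginine into macrophages (chr8:40862396-40922308, build GRCm38), was at 840 CPM in WT and 478 CPM in TSK members and at 47.3 and 40.03 CPM in Arg1-low cells, log2 ratios of 4.15 (3.63 to 4.72) and 3.58 (2.82 to 4.46). Nos2, which turns arginine into nitric oxide (chr11:78920787-78960254), was at 163 and 268 CPM against 14.2 and 20.01 CPM, log2 ratios of 3.52 (2.57 to 4.66) and 3.74 (2.69 to 5.07). T cells held 4.06 CPM or less of Slc7a2 and 5.65 CPM or less of Nos2. The smaller ratio of Nos2 was 0.89 with the upper limit on UMIs. The other 11 tested genes of the list were not 2-fold apart in both libraries. Odc1, the first enzyme of polyamine synthesis from ornithine, was at log2 ratios of 0.21 (−0.19 to 0.63) and 0.22 (−0.24 to 0.70), and Ass1, which rebuilds arginine from citrulline, at 1.87 and 0.71.

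Arg1 and Nos2 were found in the same cells. At least 1 Nos2 UMI was present in 28 of 81 WT and 68 of 133 TSK members. Members with Nos2 held a median of 122.5 Arg1 UMIs in WT and 38 in TSK, and those without it 45 and 18, values that were not matched for depth. After each cell was thinned to 2000 UMIs, the share of members with Nos2 was 17.3% (9.78 to 27.3) in WT and 29.9% (22.1 to 38.7) in TSK, against 0% and 2.04% of Arg1-low cells and 0.466% and 0.441% of T cells. Nos2 was not particular to members, since 16.7% (6.37 to 32.8) of WT and 8.87% (4.51 to 15.3) of TSK resident-like cells held it. With members split into 3 bins of like size by Arg1 per 10000 UMIs, Nos2 went from 50.1 to 194 to 255 CPM in WT and from 128 to 277 to 444 CPM in TSK. The bins differed less in depth, with medians of 16500, 14125 and 17070 UMIs in WT and 8075, 7697 and 9450 in TSK.

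Secreted and matrix proteins were also among the shared genes. Of 17 tested matrix and angiogenic genes, 6 were at least 2-fold higher in both libraries (Vegfa, Mmp12, Timp1, Adam8, Fn1 and Ecm1), beside 2.64% of all genes, and 1, Pdgfc, was at least 2-fold lower, beside 1.64%. Their medians were 0.19 in WT and 0.35 in TSK. Mmp12, macrophage elastase, was at 689 and 434 CPM against 30.0 and 2.86 CPM in Arg1-low cells, but it came from 18 WT and 34 TSK members, rested on 1 UMI in TSK Arg1-low cells, and was not 2-fold higher in both libraries with the upper limit on UMIs. Fn1, fibronectin, was at 2813 CPM in WT and 1964 CPM in TSK members against 257 and 529 CPM, log2 ratios of 3.45 (3.23 to 3.69) and 1.89 (1.68 to 2.12). T cells of the TSK library also held 469 CPM of Fn1. After thinning, Fn1 was found in 77.8% of WT and 77.2% of TSK members and in 44.4% of resident-like cells in each library. Timp1, an inhibitor of matrix metalloproteinases, had log2 ratios of 5.63 and 1.83.

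Spp1, osteopontin, a secreted phosphoprotein of the lipid-associated list, was at 3142 and 3374 CPM in members and at 39.4 and 1372 CPM in Arg1-low cells. Its share after thinning was 65.4% of WT and 66.1% of TSK members, beside 36.1% and 44.4% of resident-like cells. Of the 480 Spp1 UMIs in TSK Arg1-low cells, 1 cell with 2 Arg1 UMIs and 35054 UMIs in all held 82.3%, and without it the level was 270.1 CPM. The TSK Arg1-low share of 24.5% (13.3 to 38.9) did not exceed the 33.5% (27.4 to 40.03) of TSK T cells. The smaller ratio of Spp1 was 1.3, and it was 3.69 with an Arg1 limit of 2 UMIs. The lipid-binding protein Fabp5 and the protease Ctsl were also at least 2-fold higher in both libraries, and the cholesterol exporter Abcg1 was at least 2-fold lower.

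The 10 genes highest by the smaller of their 2 ratios were Ccl24, Mmp12, Slc7a2, Nos2, Inhba, Gm31763 and the fibroblast genes Col1a1, Col1a2, Col3a1 and Postn. Ccl24, eotaxin-2, which attracts eosinophils, was at 1186 CPM in WT and 209 CPM in TSK members, at 15.8 CPM in WT Arg1-low cells and at 0 UMIs in TSK Arg1-low cells, a log2 ratio of 6.23 (5.35 to 7.30) in WT and at least 4.61 in TSK. Inhba, the activin A subunit, was at 220 and 195 CPM against 14.2 and 17.2 CPM. Gm31763, a gene model of no known function, was at 52.6 and 149 CPM, of which 1 TSK cell held 69.8%. For the 4 fibroblast genes, 1 cell in each library held 51.9% to 80.2% of the UMIs of each. The log2 ratio of Col1a1, at 4.51 in WT and 4.73 in TSK, turned to −0.49 by the smaller of its 2 ratios when cells with 10 UMIs of fibroblast or cancer markers were left out.

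**Figure D3:**
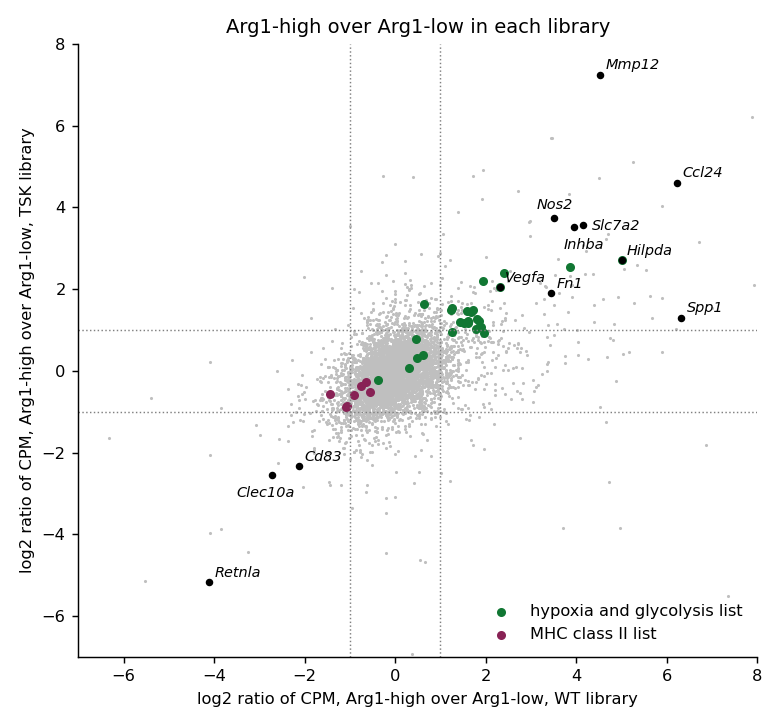
Log2 ratio of CPM, Arg1-high over Arg1-low C1q macrophages, in the WT (x axis) and TSK (y axis) library for 5799 genes, each point a gene, with genes at 0 UMIs in a sum placed at 3 counts. Hypoxia and glycolysis genes lay toward the upper right and MHC class II genes at the lower left of the center, with Retnla at −4.12 and −5.17.

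The genes lowest in members included markers of resident and antigen presenting cells. Retnla, a secreted protein of interleukin-4 responding and resident macrophages, was at 25.96 CPM in WT and 5.08 CPM in TSK members, at 451 and 183 CPM in Arg1-low cells and at 977 and 982 CPM in resident-like cells. It was found in 3 WT and 4 TSK members, and 1 WT cell held 84.2% of the WT UMIs. After thinning, 1.23% and 0.787% of members held it, no more than the intervals of T cells (0.0565 to 1.67 and 0.107 to 3.15) allow, so Retnla was not detectable above background in members. With the upper limit on UMIs it was not 2-fold lower in both libraries. Clec10a, a C-type lectin of dendritic cells and macrophages, was at 17.1 and 7.26 CPM against 112 and 42.9 CPM. Cd83, an activation marker of antigen presenting cells, was at 64.2 and 71.2 CPM against 281 and 357 CPM, log2 ratios of −2.13 (−2.50 to −1.76) and −2.33 (−2.72 to −1.93).

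The others of the 10 lowest were Ighm, Negr1, Stxbp6, Clec4b1, Tmem176a, Pparg and Grap2. Tmem176a, a membrane protein of antigen presenting cells, was at 45.8 and 42.9 CPM against 276 and 206 CPM, and the nuclear receptor Pparg at 4.10 and 10.9 CPM against 69.4 and 45.7 CPM. Ighm, an immunoglobulin gene, rested on 40 and 18 UMIs in Arg1-low cells and 2 in each group of members. Monocyte genes were mixed. Of 8 tested, Ly6c2 and Plac8 were at least 2-fold lower, and Vcan, Chil3 and the coagulation factor gene F10 at least 2-fold higher, in both libraries, with 74.8% of WT and 63.6% of TSK Chil3 UMIs in 1 cell each. Selenop, a selenium carrier of resident macrophages, was also at least 2-fold lower.

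The 7 tested MHC class II genes were all lower in members in both libraries, though none by 2-fold in both. Their medians were −0.92 in WT and −0.56 in TSK. H2-Aa was at 2246 CPM in WT and 1468 CPM in TSK members against 4690 and 2670 CPM in Arg1-low cells, log2 ratios of −1.06 (−1.13 to −0.99) and −0.86 (−0.98 to −0.75). Cd74, the invariant chain, had log2 ratios of −0.76 and −0.38. Interferon, chemokine receptor, complement and checkpoint genes held no gene at least 2-fold apart in both libraries (of 19, 6, 7 and 12 tested). Of 10 iron and heme genes Mt1 and Mt2 were at least 2-fold higher, of 14 inflammatory genes Saa3, of 17 chemokines Ccl24 and of 14 cell cycle genes Birc5.

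Within members, several of these genes were higher in the bin with most Arg1 than in the bin with least. This is a description, since the rule also used Arg1. The rise was not steady for every gene. Vegfa went from 432 to 341 to 458 CPM in WT, and Fn1 from 1288 to 1024 to 3749 CPM in TSK. From the lowest to the highest bin by Arg1 per 10000 UMIs, Slc7a2 went from 471 to 1328 CPM in WT and from 173 to 833 CPM in TSK. The hypoxia and glycolysis list went from 7823 to 11994 CPM in WT and from 9785 to 14926 CPM in TSK, and Hilpda from 78.0 to 240 CPM and from 216 to 482 CPM. The iron and heme list went from 8515 to 14043 CPM and from 15295 to 27549 CPM. MHC class II genes went from 14040 to 9903 CPM in WT but from 6216 to 9714 CPM in TSK, so this group did not keep 1 direction.

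Between the genotypes, 5885 genes were compared within members. Of these, 403 (6.85%) were at least 2-fold higher in TSK and 174 (2.96%) at least 2-fold lower, with a median log2 ratio over all genes of 0.15. In T cells of the same libraries 13.7% of tested genes were at least 2-fold higher in TSK and 1.61% lower, with a median of 0.17. These ratios compare 1 library with 1 library, and depth differs between them as given above. Of 60 genes named for a 2-fold ratio, 23 kept it under every alternative that gave a value. The upper limit on UMIs, which left 19 WT members, kept 28 of the 44 it gave a value for, and the rule at 2000 UMIs 32 of 48.

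Iron and heme genes were higher in TSK members. Of 10 tested, 6 were at least 2-fold higher and all 10 were above 0, with a median of 1.10, against 6.85% of all genes. T cells of the same libraries had the same direction. There 3 of 5 tested were at least 2-fold higher, beside 13.7% of all genes, with a median of 1.41. Hmox1, heme oxygenase 1, was at 229 CPM in WT and 646 CPM in TSK, a log2 ratio of 1.5 (1.32 to 1.68), and it ran from 1.30 to 1.66 over the alternative settings. The ferritin light chain Ftl1 was at 2634 and 5280 CPM, a ratio at the 2-fold limit that 4 alternatives took just below it, and the heavy chain Fth1 at 7172 and 11198 CPM (log2 ratio 0.64). The heme transporter Slc48a1 was at 25.96 and 71.9 CPM (log2 ratio 1.47, interval 0.92 to 2.05).

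The metal-binding metallothioneins Mt1 and Mt2 and the transferrin receptor Tfrc were the other 3. Mt1 was at 902 and 2534 CPM and Mt2 at 399 and 927 CPM, while T cells went from 120 to 1201 CPM for Mt1 and from 73.7 to 355 CPM for Mt2. Ftl1 also went from 354 to 941 CPM in T cells. The log2 ratio of Tfrc turned from 1.2 to −0.17 without cells holding 3 UMIs of other cell types' markers. In Arg1-low cells 2 of the 10 genes were at least 2-fold higher in TSK (13.7% of all genes tested there), and in resident-like cells 4 were (10.3%). The part of free RNA in these differences was not tested.

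**Figure D4:**
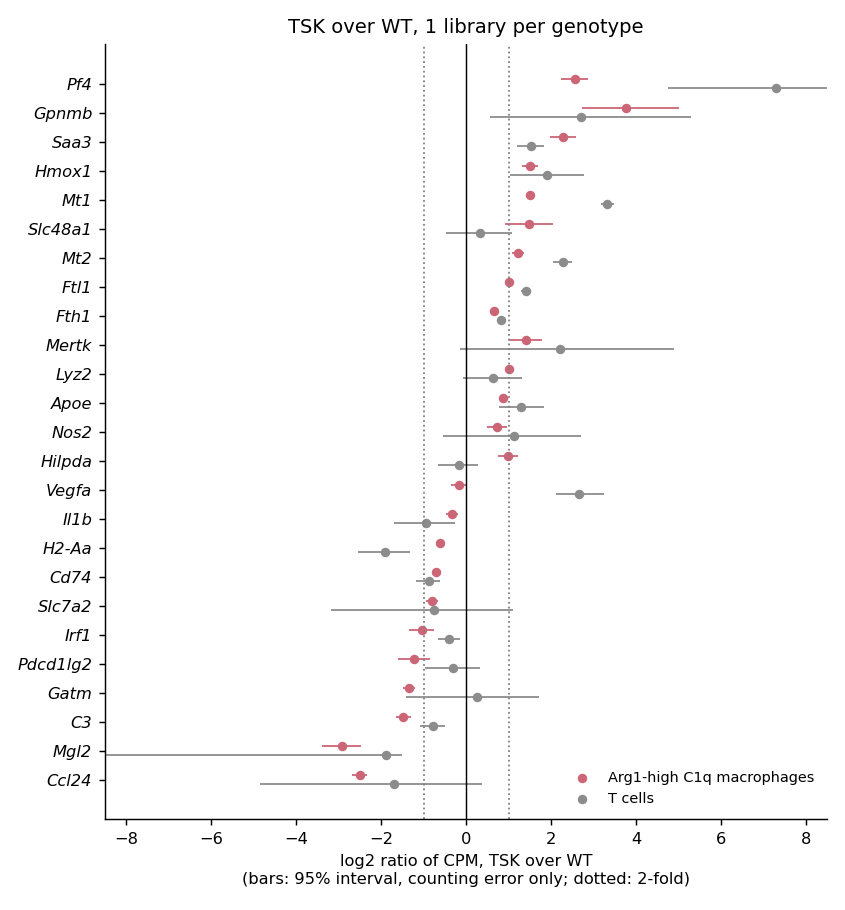
Log2 ratio of CPM, TSK over WT, in Arg1-high C1q macrophages and in T cells for 25 genes, with 95% counting intervals (a bar to the edge has no bound) and 1 library per genotype. Pf4 stood at 2.55 and Ccl24 at −2.50 in members, and Mt1 was at 3.32 in T cells against 1.49 in members.

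Pf4, platelet factor 4, a chemokine that resident macrophages also make, was at 67.6 CPM in WT and 397 CPM in TSK members, a log2 ratio of 2.55 (2.24 to 2.88). It was found in 23 of 81 WT and 62 of 133 TSK members, and after thinning in 12.3% (6.08 to 21.5) and 26.8% (19.3 to 35.4). T cells of the TSK library held 45.2 CPM and a share of 2.64%. Resident-like cells were higher than members in both libraries, at 173 and 877 CPM, and Arg1-low cells were at 67.8 and 109 CPM. The log2 ratio in members ran from 1.91 to 3.73 over the alternative settings and was never below 2-fold.

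Of 13 tested macrophage markers, 2 were at least 2-fold higher in TSK, beside 6.85% of all genes, and 4 were below 0. These were Mertk and Lyz2. Mertk, a receptor for apoptotic cells, was at 54.0 and 142 CPM, and Lyz2, lysozyme, at 1258 and 2539 CPM. Of 18 tested lipid-associated genes 17 were above 0, with a median of 0.46, and 2 were at least 2-fold higher, Gpnmb and Fabp4, beside 6.85% of all genes. Gpnmb, a glycoprotein of lysosomal stress, was found in 3 of 81 WT and 22 of 133 TSK members, at 5.47 and 74.1 CPM. Fabp4 rested on 8 UMIs in WT, WT T cells held 120.1 CPM of it, and its ratio went from 3.02 to 0.13 with the upper limit on UMIs. Apoe and the lysosomal protease Ctsd had log2 ratios of 0.87 (0.80 to 0.94) and 0.89 (0.78 to 0.99), and Spp1 one of 0.10 (0.04 to 0.16) that was below the median gene and turned to −0.05 when ratios were centered on it.

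Genes of alternative activation were lower in TSK. Of 10 tested, 5 were at least 2-fold lower and none at least 2-fold higher, against 2.96% of all genes that were lower, with a median of −1.03. Ccl24 was at 1186 CPM in WT and 209 CPM in TSK, a log2 ratio of −2.50 (−2.69 to −2.32), and was found after thinning in 34.6% (24.3 to 46.0) of WT and 12.6% (7.38 to 19.7) of TSK members. Over the alternative settings its ratio ran from −2.65 to −1.36. Pdcd1lg2, the ligand PD-L2, was at 139 and 59.6 CPM, a ratio of −1.22 that fell short of 2-fold in 5 alternatives and was −0.25 with the upper limit on UMIs. Mgl2, a galactose-binding lectin, was at 251 and 33.4 CPM with 54.1% of the WT UMIs in 1 cell. Chil3 was at 1567 and 447 CPM and Ccl17 at 258 CPM and 0 UMIs, but 1 WT cell held 74.8% and 97.3% of these. Mrc1, the mannose receptor, was at 1255 and 700 CPM (log2 ratio −0.84, interval −0.96 to −0.73), but its ratio was −0.035 with the rule at 2000 UMIs. In Arg1-low cells 3 of 11 listed genes tested were at least 2-fold lower in TSK (4.27% of all genes tested there). There 2 were at least 2-fold higher (13.7%). In resident-like cells 3 of 11 were at least 2-fold lower (2.35%) and none 2-fold higher.

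In the arginine list, Gatm, the first enzyme of creatine synthesis from arginine, was at 1026 CPM in WT and 405 CPM in TSK, or −1.34 on the log2 scale (−1.49 to −1.20). The polyamine synthases Srm and Sms were at least 2-fold higher in TSK, but without cells holding other cell types' markers Srm turned to −0.31 and Sms was 0.56, and both were higher in TSK T cells too. Slc7a2 was at a log2 ratio of −0.81 (−0.95 to −0.68) and Nos2 at 0.72 (0.48 to 0.96), both under 2-fold. Of these, Slc7a2 turned to 0.06 with the upper limit on UMIs.

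The MHC class II genes were below 0 in all 7 tested cases, with a median of −0.62 and none at 2-fold. With the upper limit on UMIs H2-Eb1 turned to 0.29, and H2-Aa and H2-Ab1 were at −0.078 and −0.0087. Cd74 was at 5997 CPM in WT and 3670 CPM in TSK members, and H2-Aa, H2-Ab1 and H2-Eb1 had log2 ratios of −0.61, −0.55 and −0.62. T cells of the TSK library also held less, with 21.0 CPM of H2-Aa against 78.9 CPM, and 6 of 7 genes were at least 2-fold lower in resident-like TSK cells (2.35% of all genes tested there), as were 2 of 8 in Arg1-low cells (4.27%). Of 18 interferon genes tested, 15 were below 0, and Irf1 (208 and 101 CPM) and Igtp (47.8 and 19.6 CPM) were at least 2-fold lower while Ifit2 (21.2 and 78.5 CPM) was at least 2-fold higher. Irf1 and Igtp were under 2-fold, at −0.87 and −0.94, without cells holding 10 UMIs of fibroblast or cancer markers.

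Complement, matrix and monocyte genes held a few that were lower in TSK. C3, the central complement protein, was at 756 and 272 CPM (log2 ratio −1.48, interval −1.65 to −1.31), but its ratio was −0.35 with the upper limit on UMIs. Serping1 was also lower, from 3 cells in each library. Timp1 was at 467 and 213 CPM and Mmp13, a collagenase, at 58.1 and 13.8 CPM. With that limit Mmp13 was at −0.57. Vcan, versican, was at 91.5 and 42.1 CPM with a ratio that was −0.12 without cells holding other cell types' markers. Ccr2, the receptor that recruits monocytes, was at 262 and 147 CPM, a log2 ratio of −0.83 that was −0.042 without those cells. Fn1 at −0.52 turned to 0.56 with the upper limit on UMIs, and Igf1 at −1.04 to 0.82.

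Inflammatory genes differed little. Of 16 tested, Saa3, an acute phase protein, was at least 2-fold higher in TSK (71.7 and 346 CPM), with 40% of the WT UMIs in 1 cell and a ratio that went from 2.27 to 0.23 with the rule at 2000 UMIs. Il1b, interleukin-1 beta, was at 603 and 478 CPM (log2 ratio −0.34, interval −0.48 to −0.19). Among chemokines Ccl3 and Ccl4, which attract T cells and monocytes, were at least 2-fold higher, but with the upper limit on UMIs Ccl3 turned to −0.068 and Ccl4 was 0.39. Cxcl2, which attracts neutrophils, was at 943 and 996 CPM. The atypical chemokine receptor Ccrl2 was at 88.1 and 195 CPM. The stress genes Atf3, Hspa1a and Hspa1b were at least 2-fold higher in TSK, at log2 ratios of 1.07, 1.3 and 1.36. With the rule at 2000 UMIs Hspa1a was 0.25 and Hspa1b 0.069, and with the upper limit on UMIs Atf3 was 0.45. Of the hypoxia list only Adm (10.2 and 51.6 CPM) was 2-fold apart among 27 tested, while Hilpda was at 0.98 (0.74 to 1.22) and Vegfa at −0.18 (−0.35 to −0.01). The ratio of Hilpda was 0.45 without cells holding 3 UMIs of other cell types' markers.

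Cell cycle genes were higher in TSK members, with 12 of 16 tested at least 2-fold higher, beside 6.85% of all genes, and a median of 1.67. Top2a was at 60.8 and 242 CPM and Mki67 at 26.6 and 110 CPM. T cells had the same direction, with 11 of 17 at least 2-fold higher, beside 13.7% of all genes. So did Arg1-low cells, with 9 of 12 (13.7% of all genes tested there), and resident-like cells, with 7 of 17 (10.3%). From the lowest to the highest bin by Arg1 the list went from 2953 to 1508 to 1033 CPM in TSK members and from 963 to 464 to 1034 CPM in WT members, so the libraries were apart in the lower bins and alike in level in the highest. After thinning, Mki67 or Top2a was found in 12.3% (6.08 to 21.5) of WT and 19.7% (13.2 to 27.7) of TSK members, and in 11.4% and 24.7% of T cells. The count of 12 dropped to 5 without cells holding 10 UMIs of fibroblast or cancer markers and to 7 with equal weight for each cell. Without cells holding 3 UMIs of other cell types' markers the log2 ratio of Top2a went from 1.99 to 0.86, under 2-fold.

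**Figure D5:**
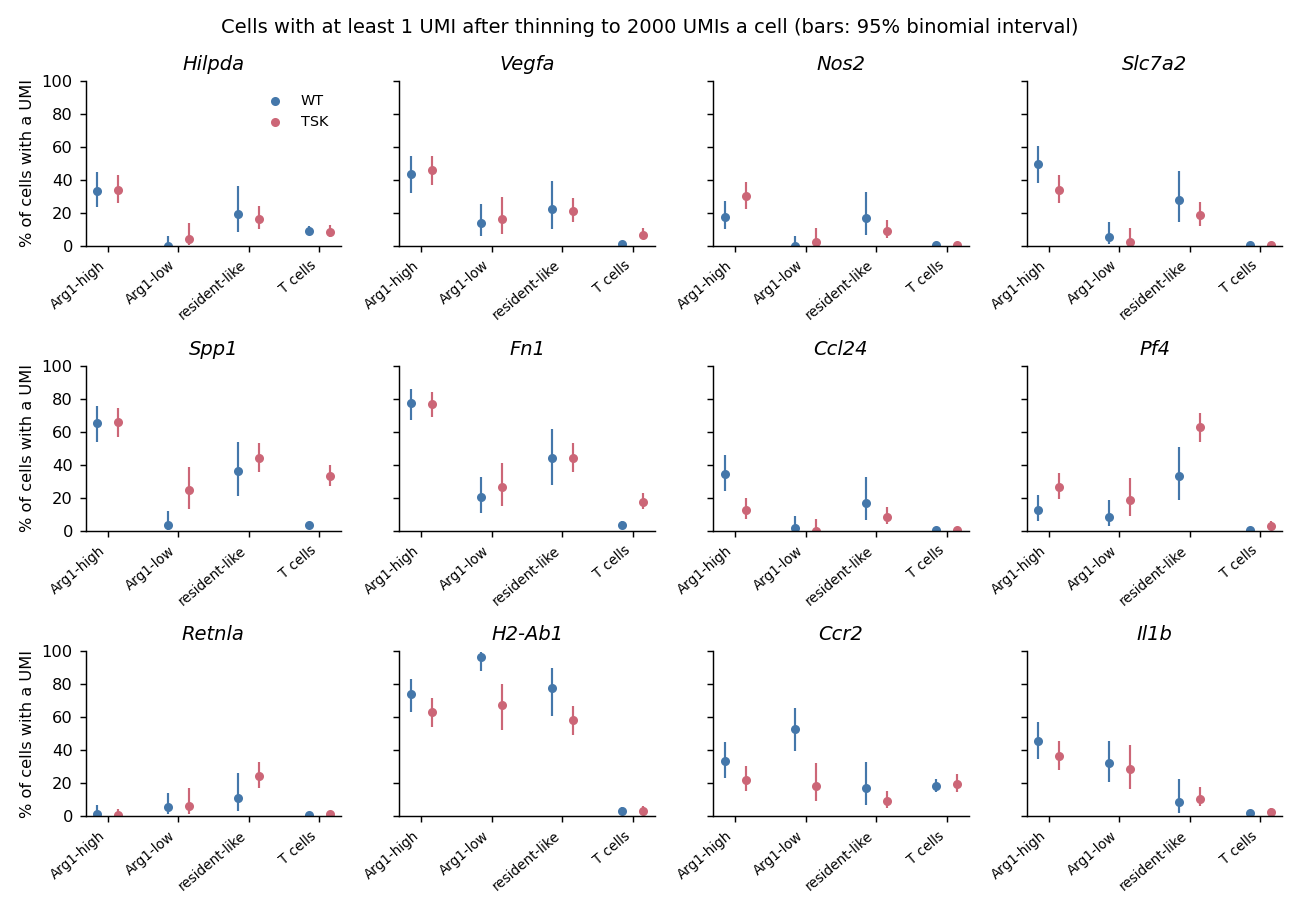
Percent of cells with at least 1 UMI of each gene after each cell was thinned to 2000 UMIs, in Arg1-high, Arg1-low and resident-like C1q macrophages and T cells of both libraries, with 95% exact binomial intervals. Hilpda, Vegfa, Slc7a2, Spp1 and Fn1 were most frequent in Arg1-high cells, Pf4 and Retnla in resident-like cells, and Ccl24 was found in 34.6% of WT and 12.6% of TSK members. The choice of Hilpda, Slc7a2, Fn1 and Ccl24 was not fixed before the data were read, so their shares are a description.

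Many genes at the ends of the TSK over WT ranking rested on few cells. The 10 highest were Shroom2, H19, Hist1h1e, Col18a1, Mest, Hist1h2ap, Mgp, Gpnmb, Tnc and Phgdh. For Shroom2, H19 and Tnc 1 TSK cell held 85.7%, 79.7% and 70.4% of the UMIs. Mgp, a matrix protein, and Col18a1, a basement membrane collagen, were also higher in TSK T cells (24.7 and 202 CPM for Mgp). The histone gene Hist1h2ap, from 6 WT and 37 TSK members, was at 28.7 and 515 CPM and at 74.3 and 555 CPM in T cells. Without cells holding 3 UMIs of other cell types' markers, the log2 ratio of Mgp went from 3.87 to 0.10 and that of Hist1h2ap from 4.17 to 0.32. Among the 10 lowest were Ccl17, Prg4, Pi16, Ogn, Rnase2a, Ube2cbp, Itgb6, Lbp and Apod, found in 1 to 8 WT members each, and 1 WT cell held between 52.1% and 100% of the UMIs of each.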

How the data were processed

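The deposited files hold UMI counts per gene and cell for 2 10x libraries, which the authors made with Cell Ranger (7.1.1 per the labels, 7.1.0 per the file headers) on build mm10 from pooled, enzymatically digested tumors with dead cells removed and no cell selection. The annotation is not given in the sources used here. The libraries held 2332 (WT) and 4436 (TSK) barcodes with medians of 4324 and 3068 UMIs.

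Cells with at least 200 genes, at least 500 UMIs and at most 10% mitochondrial UMIs were kept, and barcodes in both libraries were left out. Doublets were not removed. Classes followed the rule in the report, and T cells had at least 2 UMIs over their 4 genes and no C1q. Counts were summed per class and library and scaled to CPM, with exact Poisson intervals for levels, exact conditional binomial intervals for ratios and exact binomial (Clopper-Pearson) intervals for shares. They cover counting error only. With 1 library per genotype nothing was tested between genotypes. Genes with a mean of at least 20 CPM were compared, and 2-fold was the limit for a call. A sum of 0 was set to 3 counts for a bound.

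Named genes were the 10 highest and 10 lowest by ratio in each comparison, Retnla and Pf4, the up to 4 most abundant tested members of each gene list with every member past 2-fold, and the rule genes. A few genes that this rule names are not reported here. The members and gene lists were chosen with earlier results of these data known. Alternatives changed the limits on cells, Arg1 and C1q, shared barcodes, cells with other markers, depth, scaling, cell weights and the CPM filter. Scripts were tested on simulated data. Intervals came from scipy 1.17.1, tables from pandas 2.3.3 and numpy 2.4.6 under python 3.11.15, and plots from matplotlib 3.10.9.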

Additional observations from a re-analysis of the deposited data

Results flagged for a closer look

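Among the named genes, 18 cases were at least 2-fold apart in opposite directions. They were either TSK over WT between Arg1-high and Arg1-low cells, or Arg1-high over Arg1-low between the libraries. Of these cases, 2 kept both directions at that size when the cell with most UMIs of the gene was left out of each sum. Both were ratios of TSK over WT. Gas6, a ligand of Mertk, stood, as TSK over WT on the log2 scale, at −2.86 in Arg1-high cells (11 UMIs in TSK and 85 in WT) and 1.03 in Arg1-low cells (18 and 16 UMIs). Timp1 stood at −1.13 in Arg1-high cells (293 and 684 UMIs) and 2.67 in Arg1-low cells (21 and 6 UMIs). Neither difference was tested, since each genotype had 1 library. Gas6 in Arg1-high cells turned to 1.26 without cells holding 10 UMIs of fibroblast or cancer markers.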

How the results depend on the processing

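The count of hypoxia and glycolysis genes (12 to 20) and of iron and heme genes (4 to 6) stayed within 1.5 times its value under the alternatives tried. With the upper limits of 10000 UMIs and genes, the log2 ratio of the share of filtered cells was 1.21 and of non-resident cells 0.77, the Arg1 ratio 0.15, genes higher and lower in TSK 646 and 564, genes lower in Arg1-high cells 232, cell cycle genes 3 and MHC class II genes higher in TSK 1. The Arg1 ratio was −0.20 with shared barcodes kept, 0.13 without cells holding 3 UMIs of other markers, 0.20 with the rule at 2000 UMIs, −0.13 with equal cell weights and −0.079 without cells holding 10 UMIs of fibroblast or cancer markers, an alternative added after seeing the data. Genes higher in TSK were 258, 212, 236 and 192 with shared barcodes, at 2000 UMIs, with equal weights and without the fibroblast or cancer cells, the last of which left 102 lower and 5 cell cycle genes. Leaving out cells with other markers gave a share ratio of 0.34 and 6 cell cycle genes, and equal weights gave 7. With a mean of at least 5 CPM, 1192 genes were higher and 521 lower in TSK, and 351 higher and 219 lower in Arg1-high cells. With 100 CPM these were 62, 28, 52 and 36, with 2 cell cycle genes. The causes were not tested.

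Of 1499 values of single genes under alternatives 24 reversed. In TSK over WT the upper limits gave Slc7a2 0.061, Fn1 0.56, Mmp12 3.82, H2-Eb1 0.29, Ccl3 −0.068, Igf1 0.82, Hist1h1e −0.57 and Col18a1 −1.25. Leaving out cells with other markers gave Retnla 0.37, Tfrc −0.17, Srm −0.31, Fn1 0.13 and Gas6 0.69, and Col3a1 −0.049 in Arg1-high over Arg1-low. The rule at 2000 UMIs gave Srm −0.56, Fn1 0.15, Igf1 0.45 and Gas6 1.37, and Col1a1 −0.50 and Col1a2 −0.20 in Arg1-high over Arg1-low. Centering gave Spp1 −0.047. Without fibroblast or cancer cells Igf1 was 0.37, Gas6 1.26 and Col1a1, in Arg1-high over Arg1-low, −0.49. No paired analysis was possible because each genotype had 1 library. Where both sums held 3 counts or fewer no ratio was given, and ratios on 1 to 3 counts have wide intervals. In members 3 counts were about 2 CPM, and in Arg1-low cells 4.73 (WT) and 8.58 CPM (TSK).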
